A study of Rattus norvegicus with 6 samples.

Results

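Gabbr2, Nefm, Cnnm1, Lamc3, Crb1, Cacna1h, Casq1 and Galnt16 had lower values in the renal cortex of rats given n-nitrosodimethylamine (NDMA), among 31915 features tested. They were taken from the 12 largest falls among genes with a RefSeq symbol that had an adjusted p under 0.05 and no overlap between treated and control animals, each gene read by its brightest probe. They were thus selected on the signals of these same 6 arrays, and the differences between NDMA and control that follow describe the genes and are given without a p-value. The other genes among the 12 were Or8b54b, Ltc4s, Or4p7 and Dio1, at -1.20, -0.96, -0.93 and -0.89. Galnt16, the last of the 12, had a log2 difference of -0.85, and the genes just outside were Esr1 at -0.84, Aebp1 at -0.84 and Mgll at -0.82. In all, 58 named genes met the criteria. Of all features, 172 (0.539%) lay below -1, and genes outside the criteria also fell far, such as Fat3 at -1.43.

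The animals were 6 male Sprague-Dawley (Crl:CD(SD)) rats, bought at 5 weeks of age and kept on a basal diet. For 4 weeks 3 rats were given water and 3 were given NDMA, a nitrosamine that cytochrome P450 enzymes turn into a DNA-methylating agent, at 4 mg/kg/day. Cy3-labelled cRNA made from renal cortex total RNA was read on 1-colour Agilent arrays. Each rat had an array of its own, which the series' design calls biological replicates, so n = 3 per group throughout. Whole tissue was measured, and fewer cells of a type cannot be told apart from less RNA per cell. Between 43016 and 46248 of the 61657 non-control probes were well above background on each array. The 3 controls and NDMA rat 1 shared slide 1, and NDMA rats 2 and 3 were on slide 2, which had another scan time. All 12 proximal tubule markers and all 7 podocyte markers listed for the check of the tissue were measured. Signals are given as log2 of the processed intensity relative to the 75th percentile of the array, so that 0 is that percentile. Such values compare animals for 1 probe and do not rank different genes.

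The 8 genes belong to different families. Gabbr2 encodes the subunit of the GABA-B receptor that couples it to G proteins, and Cacna1h the pore of a T-type calcium channel, which opens at small depolarisations. Casq1 encodes a calsequestrin, a protein that binds calcium inside the sarcoplasmic reticulum of muscle. Nefm is a neurofilament chain, a part of the cytoskeleton of axons, and Lamc3 is a gamma chain of laminin, a trimer of basement membranes. Crb1 belongs to the Crumbs proteins, which mark the apical side of epithelial cells and are best known from the retina. Cnnm1 belongs to a family of membrane proteins linked to magnesium transport, a main task of the distal nephron, and Galnt16 is an enzyme of the Golgi that starts O-linked sugar chains on serine and threonine.

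Promoter sequences, from 250 bases before to 50 bases after the annotated start, were matched for 5 of the 8 genes in RefSeq (GRCr8). All 5 were GC-rich, with a GC content from 60% (Casq1) to 78.7% (Gabbr2) against a median of 51.7% over all promoters. Their CpG counts differed. The Gabbr2 promoter had a GC content of 78.7% and 47 CpG dinucleotides, more than 98.7% of the 33469 promoters in the table, where the median was 7. Galnt16 had 30 CpG, Lamc3 19 and Cnnm1 12, and Casq1 had only 3, fewer than the median. Each of the 5 windows held the GC box GGGCGG once, counted on both strands, a motif in 33.1% of all promoters of that length. The E-box CACGTG was found in Cnnm1, against 6.42% of all promoters. In none of the 5 were the TATA box TATAAA (14.2% of all), TTCNNNGAA (8.87%), TGACGTCA (1.83%) or the consensus of the RE1 element (0.0538%) found in these windows. The 3 printed here show the most CpG-rich and the most CpG-poor window and the one with the E-box. They read 5′ to 3′ on the strand of the gene, with capitals for GGGCGG (or its complement CCGCCC) and CACGTG.
Gabbr2 promoter, GRCr8 chr5:66083646-66083945, minus strand: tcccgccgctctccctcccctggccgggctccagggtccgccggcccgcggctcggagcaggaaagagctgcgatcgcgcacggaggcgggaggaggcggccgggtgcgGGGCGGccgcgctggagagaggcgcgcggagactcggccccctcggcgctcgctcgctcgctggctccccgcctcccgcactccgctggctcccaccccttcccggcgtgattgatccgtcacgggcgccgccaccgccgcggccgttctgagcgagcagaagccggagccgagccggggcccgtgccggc
Casq1 promoter, GRCr8 chr13:87212661-87212960, minus strand: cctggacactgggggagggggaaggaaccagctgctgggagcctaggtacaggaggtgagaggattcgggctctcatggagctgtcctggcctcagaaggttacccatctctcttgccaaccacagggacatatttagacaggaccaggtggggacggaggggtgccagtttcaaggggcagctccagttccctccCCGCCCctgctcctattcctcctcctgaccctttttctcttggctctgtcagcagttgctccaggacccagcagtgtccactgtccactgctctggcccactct
Cnnm1 promoter, GRCr8 chr1:252245373-252245672, plus strand: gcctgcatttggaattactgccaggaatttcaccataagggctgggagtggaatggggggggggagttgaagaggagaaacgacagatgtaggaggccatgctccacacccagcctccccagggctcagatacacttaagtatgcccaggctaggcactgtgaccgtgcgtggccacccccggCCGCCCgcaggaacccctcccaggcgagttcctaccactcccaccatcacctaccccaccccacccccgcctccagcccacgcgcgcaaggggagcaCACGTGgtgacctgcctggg

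The receptor subunit gene Gabbr2 had the largest difference of the 8. Its brightest probe read 0.86, 1.83 and 0.54 in controls 1 to 3 and -1.08, -0.47 and -1.08 in NDMA rats 1 to 3. The groups did not overlap, and control 2 stood above both other controls. The mean was 1.08 ± 0.67 (SD, n = 3) in controls and -0.88 ± 0.35 in NDMA rats, a log2 difference of -1.95 ± 0.36 (SE) or 3.87-fold lower. In unscaled processed intensity these spots ran from 1488 to 3535 in controls and from 497 to 948 after NDMA. A second Gabbr2 probe gave the same order of animals among controls, with 0.17, 1.04 and -0.24 against -1.80, -1.10 and -1.80 in NDMA rats. Its difference was -1.89 ± 0.36, close to that of the first probe.

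The T-type channel gene Cacna1h, read by 1 probe, had a smaller difference. The values were -1.61, -1.05 and -1.42 in controls and -2.57, -2.27 and -2.31 in NDMA rats. The lowest control lay 0.66 above the highest NDMA rat. The NDMA mean was 49.2% of control, at -2.38 ± 0.17 (SD) against -1.36 ± 0.29, with a log2 difference of -1.02 ± 0.17 (SE).

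All 3 probes of Casq1 gave differences of like size. The brightest read 1.07, 1.13 and 0.58 in controls and -0.19, 0.10 and -0.06 in NDMA rats. Control 3 was the lowest control and still lay 0.48 above the highest NDMA rat. The difference was -0.98 ± 0.17, or 1.97-fold, and the other two probes gave -0.88 ± 0.18 and -1.04 ± 0.12. On the last of these probes the 3 NDMA rats lay within -2.71, -2.72 and -2.79, an SD of 0.04, against an SD of 0.22 among controls.

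Among the structural genes, Nefm had the second largest difference, and 1 probe reads it. It stood at 0.60, 1.32 and 0.40 in controls and at -1.07, -1.40 and -0.85 in NDMA rats. As for Gabbr2, control 2 was the highest animal, and the gap between the groups was 1.24, the widest among the brightest probes of the 8 genes. The means were 0.77 ± 0.48 and -1.11 ± 0.28 (SD), a difference of -1.88 ± 0.27 (SE) or 3.68-fold. The Nefm spots had intensities from 1352 to 2480 in controls and from 496 to 722 after NDMA.

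The 3 probes of the laminin chain Lamc3 disagreed in size. The brightest read -2.78, -3.04 and -3.74 in controls and -4.41, -4.56 and -4.75 in NDMA rats, a difference of -1.39 ± 0.25. Another probe, also well above background on all 6 arrays, read -4.26, -4.06 and -4.45 against -4.74, -4.55 and -4.47. Its groups were separated by only 0.02, and its difference was -0.33 ± 0.13, or 1.26-fold. The third probe was well above background in 2 of the 3 controls and in no NDMA rat. Its fall could only be estimated, at 1.96-fold lower signal after NDMA. For such an estimate, the control mean was set against the dimmest probe well above background on each NDMA array. Where the spot itself was higher, the spot was used. That dimmest probe is not a strict detection limit, and control spots not well above background were kept in the mean. The estimate is thus not a strict bound. All 3 probes are assigned to the same Lamc3 transcript, and their places on it are not given in the sources used here.

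Of the membrane proteins, Crb1 had the smallest spread within groups when both groups were pooled. Its brightest probe read -3.41, -3.22 and -3.53 in controls and -4.44, -4.84 and -4.56 in NDMA rats. These spots were dim, with intensities from 88.85 to 106.6 in controls and from 45.8 to 55.03 after NDMA. The SDs were 0.16 and 0.20, against a difference of -1.23 ± 0.14 (SE), or 2.34-fold. The other Crb1 probe was well above background in all 3 controls and in none of the NDMA rats. The same kind of estimate put it at 2.34-fold lower.

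Cnnm1 was the gene in which 1 treated animal stood most apart. Controls read -0.24, -0.39 and 0.01, with an SD of 0.20. NDMA rats read -1.43, -2.34 and -1.38, with an SD of 0.54, and rat 2 lay lowest. The difference was -1.52 ± 0.27, and -1.20 without NDMA rat 2. A dim second probe was well above background in 2 controls and no NDMA rat, with an estimate of 1.14-fold lower and overlapping groups.

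The glycosyltransferase gene Galnt16 had the smallest difference of the 8 and probes that did not agree in direction. The brightest probe read -3.93, -3.72 and -4.14 in controls and -4.62, -4.89 and -4.83 in NDMA rats, a difference of -0.85 ± 0.14 or 1.81-fold. The spots were dim, with intensities from 58.2 to 75.6 in controls and from 43.0 to 45.6 after NDMA. The other probe was well above background in 1 control and 2 NDMA rats and read -5.74, -6.62 and -6.51 against -4.75, -6.07 and -6.60. Its groups overlapped, and its mean was 0.48 higher after NDMA. It did not pass the filter on dim probes and was not tested.

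**Figure D1:**
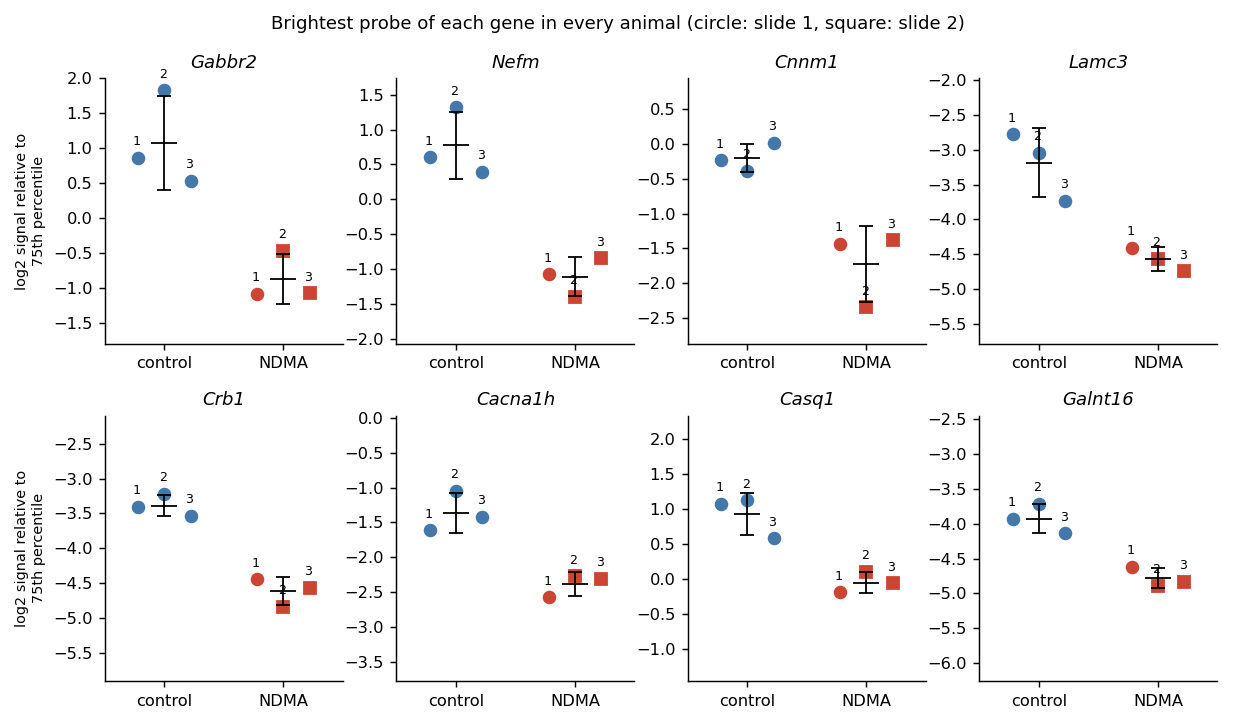
Normalised log2 signal of the brightest probe of each gene (y axis, relative to the 75th percentile of the array; every panel spans the same range of log2 units) in 3 control and 3 NDMA rats, numbered by replicate, with the group mean and SD. In all 8 panels each NDMA rat lies below each control, as the choice of genes fixed, from Gabbr2 at -1.95 to Galnt16 at -0.85. Circles are rats on slide 1, NDMA rat 1 among them, and squares are rats on slide 2.

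Taking all probes, the 8 genes had 16, of which 13 passed the filter and 12 were well above background on all 6 arrays. Nefm and Cacna1h had 1 probe each, 4 genes had 2 and Lamc3 and Casq1 had 3. The groups were separated on each of the 12, against 16.5% of all features with NDMA lower. The choice of genes had fixed this for the brightest probe of each gene. The 5 further probes that passed the filter, of Gabbr2, Lamc3, Crb1 and Casq1, all had lower means after NDMA. Probes of 1 gene read the same RNA and are not replicates of the treatment.

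**Figure D2:**
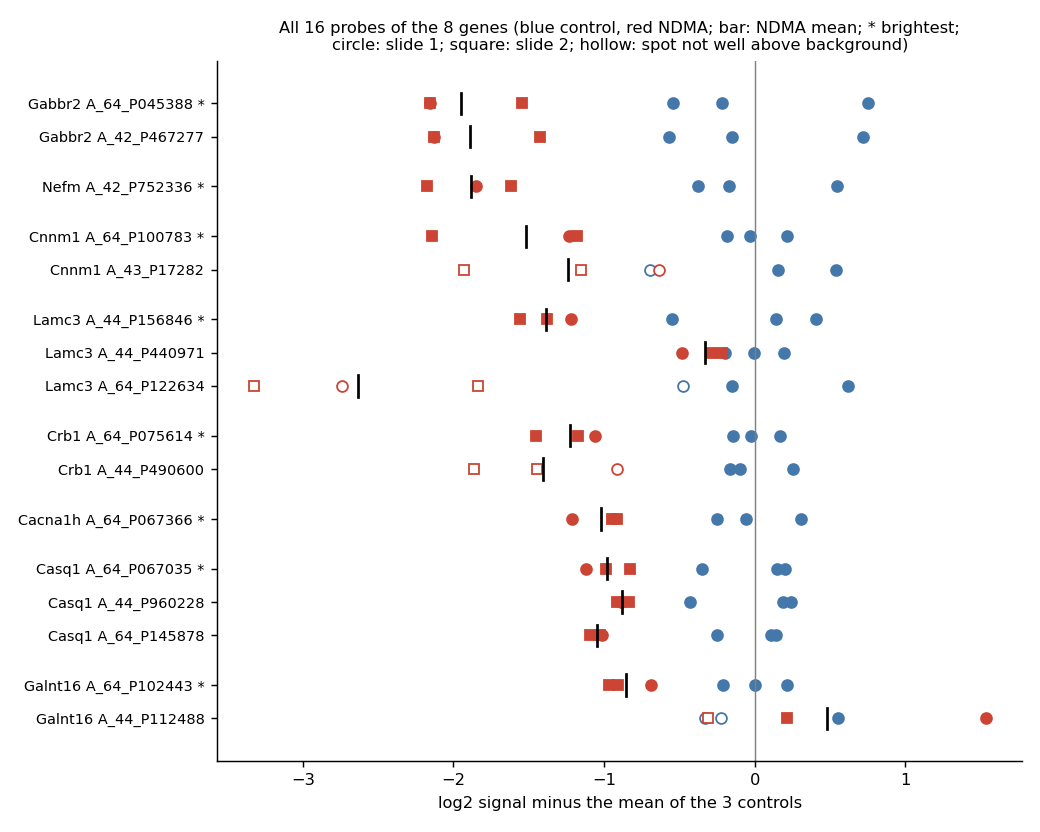
Log2 signal of each animal minus the mean of the 3 controls (x axis) for all 16 probes, with 3 control rats in blue and 3 NDMA rats in red and a bar at the NDMA mean. Hollow points are spots not well above background, whose exact place is not measured. The probes of Gabbr2 lie together (-1.95 and -1.89), and the Lamc3 probes detected on all arrays lie apart (-1.39 and -0.33).

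The 8 genes did not order the treated animals in 1 way. Measured from the control means, the median over the 8 genes was -1.22 in NDMA rat 1, -1.42 in rat 2 and -1.18 in rat 3. The ranges were also alike, from -2.16 to -0.69, from -2.17 to -0.83 and from -2.15 to -0.91. Rat 1 was lowest for Gabbr2, Cacna1h and Casq1, rat 2 for Nefm, Cnnm1, Crb1 and Galnt16, and rat 3 for Lamc3. Among controls, rat 2 was highest for 6 of the 8 genes, against 35.0% of all features, and rat 3 was lowest for 6 of the 8, against 35.4%. The medians over the 8 genes in controls 1 to 3 were -0.03, 0.21 and -0.28. For each gene the separation of the groups was fixed by the choice of genes.

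All 8 genes had an adjusted p under 0.05 in limma, which is how they were chosen, where 0.476% of all features were called lower. The groups of 16.5% of all features were separated in the same direction. On slide 1 alone, with NDMA rat 1 against the 3 controls, the differences were -2.16 for Gabbr2, -1.85 for Nefm, -1.23 for Cnnm1, -1.22 for Lamc3, -1.06 for Crb1, -1.21 for Cacna1h, -1.12 for Casq1 and -0.69 for Galnt16. A fit with slide as a fixed term reads the treatment from that rat alone and gives the same values. It called 0 of the 8, and 0.0251% of all features as lower. The median over the 8 genes was -1.31, against -0.05 over all features. On slide 1 it was -1.22, against -0.03 over all features.

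Calls were fewer in each fit that left 1 animal out, both among the 8 genes and among all features. Crb1 was called in each of the 6 fits that left 1 animal out, Nefm and Galnt16 in 2, Gabbr2, Cnnm1, Lamc3 and Casq1 in 1, and Cacna1h in 0. Without control 1, 2 or 3 the number called was 1, 3 and 5 of the 8, where 0.0877%, 0.100% and 0.132% of all features were called lower. Without NDMA rat 1, 2 or 3 it was 2, 2 and 1 of the 8, where 0.414%, 0.113% and 0.147% were. Leaving dim probes in the test left 1 of the 8 called, Crb1, where 0.0436% of features were called lower. The mean over probes called 7, all but Lamc3 (0.495% of features lower), and a trended and robust variance 7, all but Gabbr2 (0.906% lower). Gabbr2 ranged from -2.22 without control 3 to -1.57 without control 2 in the fits that left 1 animal out. With normexp background correction, which adds an offset that shrinks differences of dim probes, Lamc3 was at -0.91, Crb1 at -0.80 and Galnt16 at -0.59.

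**Figure D3:**
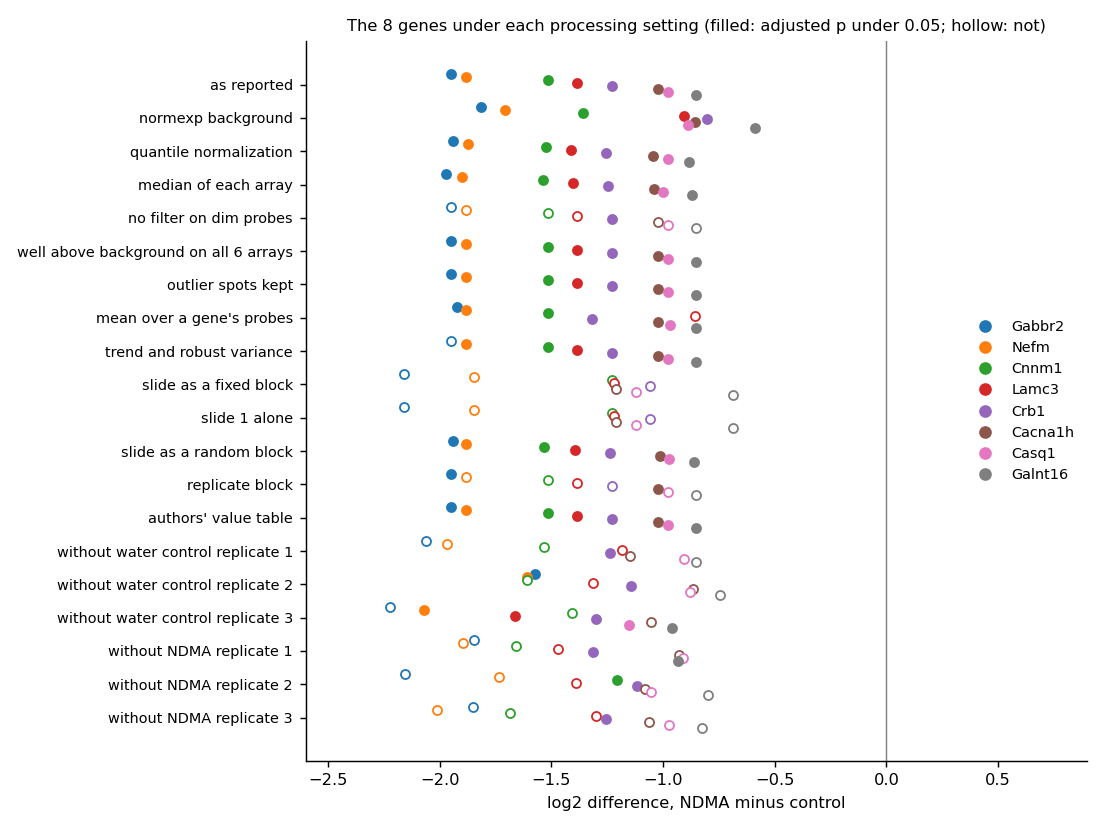
Log2 difference, NDMA minus control (x axis), of the 8 genes under each of 20 processing settings (rows), filled where the adjusted p was under 0.05. All points lie left of 0, the order from Gabbr2 and Nefm to Galnt16 is broadly kept, and all points are hollow in the rows for the slide block and slide 1 alone. Crb1 is filled in all 6 rows that leave 1 animal out, and 1 to 5 of the 8 genes are.

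Genes related to the 8 were read from 8 lists drawn up by family and pathway. Of 210 listed genes 134 were tested, and 1 rose and 0 fell in limma at an adjusted p under 0.05, which is 0.746% against 3.00% of all features. At an unadjusted p under 0.05 there were 18, of which 12 were lower, against 18.8% of all features in either direction. The median log2 difference of the related genes was -0.05, the same as over all features. Of them 0 lay below -1, against 0.539% of all features. Other genes of these families were without a named probe or too dim and were not analysed here.

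Of the GABA genes, 15 were tested and 0 rose or fell, with a median of -0.04. Gabbr1, the partner without which Gabbr2 forms no receptor, read 0.22, 0.21 and 0.20 in controls and 0.09, 0.10 and 0.00 in NDMA rats. Its difference was -0.15 ± 0.07 by the brightest probe (adjusted p = 0.335, limma). The Gabbr1 probes ran from -0.15 to 0.40, with 0.0553 as the smallest adjusted p over them. The transporters of GABA and betaine Slc6a12 and Slc6a13 had the smallest p, at 0.53 ± 0.11 (adjusted p = 0.0744) and -0.33 ± 0.09 (adjusted p = 0.149). Of the GABA-A receptor subunits, Gabra2, Gabra4, Gabra5, Gabra6, Gabrb1 and Gabrg1 were too dim on all 6 arrays to be measured.

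The filament genes held the 1 related gene that rose. Vim, the vimentin of mesenchymal cells and leukocytes, was 1.63-fold higher (0.70 ± 0.11, adjusted p = 0.0315, limma), but it passed in only 1 of the 6 fits that left 1 animal out and not in the fit with slide as a term (adjusted p = 0.265). Nefl and Ina, which assemble with Nefm in neurofilaments, were well above background on 0 of the 6 arrays, and Nefh did not pass the filter either. Prph, the peripherin of peripheral neurons, read -1.35, -1.54 and -1.64 in controls and -1.82, -2.28 and -2.25 in NDMA rats. Its groups did not overlap, and the difference was -0.61 ± 0.15 (adjusted p = 0.110) by the brightest probe and -0.72 by the other, whose adjusted p over all probes was 0.0483.

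The calcium genes gave 0 calls among 16 channel subunits and 26 genes of storage and release, with medians of -0.13 and -0.04. The other T-type channels, Cacna1g and Cacna1i, had differences of -0.38 ± 0.18 (adjusted p = 0.316) and -0.07 ± 0.10 (adjusted p = 0.749). A second Cacna1g probe was at -0.58, with 0.0856 as the smallest adjusted p over its probes. Cacna1e, a channel of the R type, had -0.43 ± 0.10 (adjusted p = 0.0969) by its brightest probe and 0.07 by the other. Cacnb4, an accessory beta subunit, had 1.45 ± 0.59 (adjusted p = 0.258), with controls spread from -3.51 to -0.99. Casq2, the cardiac calsequestrin, was at -0.71 ± 0.39 (adjusted p = 0.376), with overlapping groups. Hrc, another calcium-binding protein of the sarcoplasmic reticulum, was at -0.35 ± 0.10 (adjusted p = 0.162) and at -0.77 by its other probe (0.0844 as the smallest adjusted p over its probes), and the release channel Ryr2 at -0.43 ± 0.15 (adjusted p = 0.213), with Ryr2 probes running from -0.43 to 0.65.

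Laminin and polarity genes were close to the value over all features. Of 15 basement membrane genes 0 were called, with a median of -0.02. Lamc1, the gamma chain of most laminins, differed by -0.02 ± 0.08 (adjusted p = 0.930). Itgb4, the integrin of hemidesmosomes, had 0.24 ± 0.12 (adjusted p = 0.313). Of 19 polarity genes 0 were called, with a median of -0.07. Crb2 and Crb3 had -0.19 ± 0.14 (adjusted p = 0.492) and -0.09 ± 0.10 (adjusted p = 0.660), and the scaffold genes Mpp4 and Pard6a had 0.62 ± 0.24 (adjusted p = 0.243) and -0.28 ± 0.12 (adjusted p = 0.269).

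The magnesium list had 0 calls among 18 genes, with 14 of them below 0 and a median of -0.16. Cnnm2, the family member of the distal tubule, had -0.18 ± 0.10 (adjusted p = 0.360), and Cnnm3 -0.17 ± 0.08 (adjusted p = 0.306). The tight junction gene Cldn10 was at -0.40 ± 0.13 (adjusted p = 0.185) and Pcbd1, a cofactor of the transcription factor HNF1, at -0.25 ± 0.09 (adjusted p = 0.204). Among 19 O-glycosylation genes 0 were called, with a median of 0.01. The transferases Galnt1, Galnt2, Galnt11 and Galnt14 had differences of 0.13, -0.16, -0.04 and -0.30. Galnt6 was at 0.45 ± 0.09 (adjusted p = 0.0664), and the sialyltransferase gene St6galnac3 at -0.66 ± 0.15 (adjusted p = 0.0892), without overlap of its groups.

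**Figure D4:**
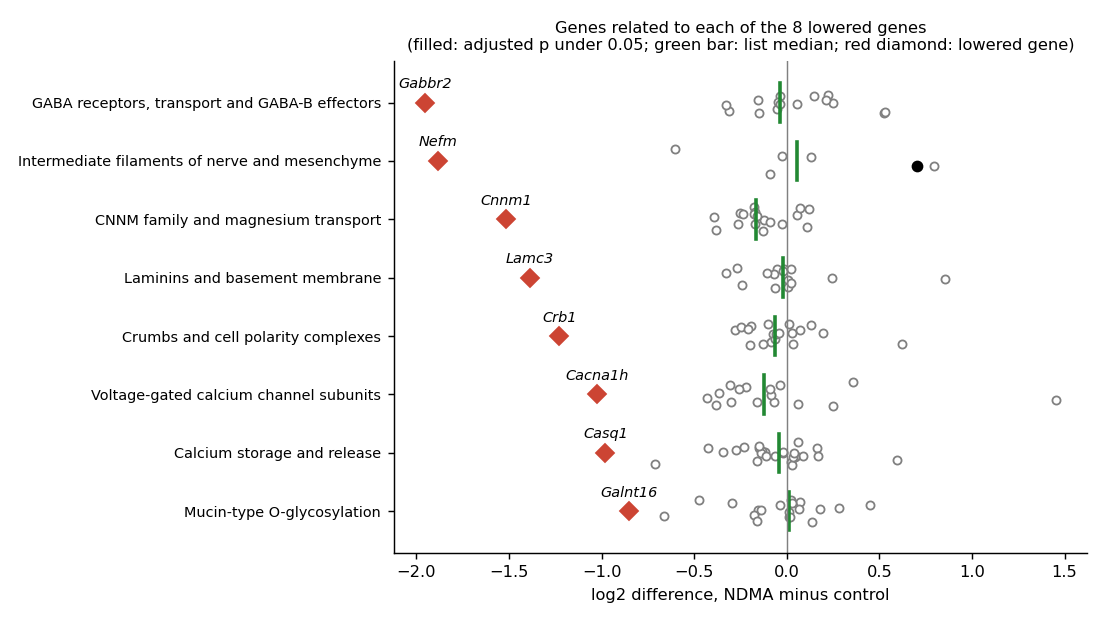
Log2 difference, NDMA minus control (x axis), of the tested genes of each related list (circles, filled where adjusted p was under 0.05) with the list median (green bar) and the lowered gene of that family (red diamond). The list medians run from -0.16 to 0.05, and the diamonds lie far left because they were chosen for their large falls.

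Several of the 8 genes are known from nerve, muscle or adrenal tissue, so markers of those tissues were read beside them. Of 8 tested nerve fibre genes 0 rose or fell in limma, with a median of -0.06, and 0 had an unadjusted p under 0.05. The summed nerve signal was taken in units of the 75th percentile of the array. It ran from 5.98 to 7.67 in controls and from 6.16 to 6.90 in NDMA rats. Dbh, Snap25 and Scn9a were well above background on no array. Of 9 Schwann cell genes 0 were called, with a median of 0.01 and sums of 2.43 to 2.59 against 2.29 to 2.44.

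Skeletal muscle markers were read beside Casq1. Of 11 tested genes 1 rose, Tnnt3, a troponin of fast muscle (0.68 ± 0.11, adjusted p = 0.0337, limma), and 0 fell. Tnnt3 passed in 1 of the 6 fits that left 1 animal out and was at 0.22 with normexp. The list median was 0.09, with 5 of the 11 below 0, and the sums were 1.64 to 1.77 in controls and 1.84 to 2.13 in NDMA rats. Myh1 and Pvalb were well above background on no array. Of 4 adrenal cortex genes 0 were called, with a median of -0.30 and 3 of the 4 below 0. Their sums were 7.18, 6.19 and 2.16 in controls 1 to 3 and 2.40 to 3.44 in NDMA rats. Star, Cyp11b1, Mc2r and Nr5a1 were well above background on no array. All 4 adrenal medulla genes lay below 0, with a median of -0.21, and 2 had an unadjusted p under 0.05 in limma. The 1 that fell was the vesicular monoamine transporter Slc18a1 (-0.66 ± 0.11, adjusted p = 0.0324, limma). It was called in 1 of 6 fits that left 1 animal out. The list sums were 64.5 to 70.3 against 55.5 to 72.9, most of it from Ddc, which the kidney also makes.

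Markers of the nephron gave 1 call and those of leukocytes 7. All 12 proximal tubule genes lay below 0, with a median of -0.32 and 1 that fell, the endocytosis receptor Lrp2 (-0.57 ± 0.10, adjusted p = 0.0448, and called in 0 of the 6 fits that left 1 animal out). At an unadjusted p under 0.05 there were 9. Their sums were 2420 to 2630 in controls and 1860 to 2170 in NDMA rats. The medians were -0.18 for the thick ascending limb, -0.04 for the distal convoluted tubule, -0.31 for principal cells, -0.15 for intercalated cells, 0.26 for the inner medulla, 0.21 for podocytes and -0.01 for endothelium, with 0 genes called in any of these lists. Of 10 leukocyte genes 7 rose, with a median of 1.30 and sums of 17.6 to 21.6 against 47.0 to 55.9. With slide as a term the adjusted p was 0.232 for Tnnt3, 0.163 for Slc18a1, 0.363 for Lrp2 and from 0.0885 to 0.195 for the 7 leukocyte genes. The part of these shifts in the values of the 8 genes was not tested.

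**Figure D5:**
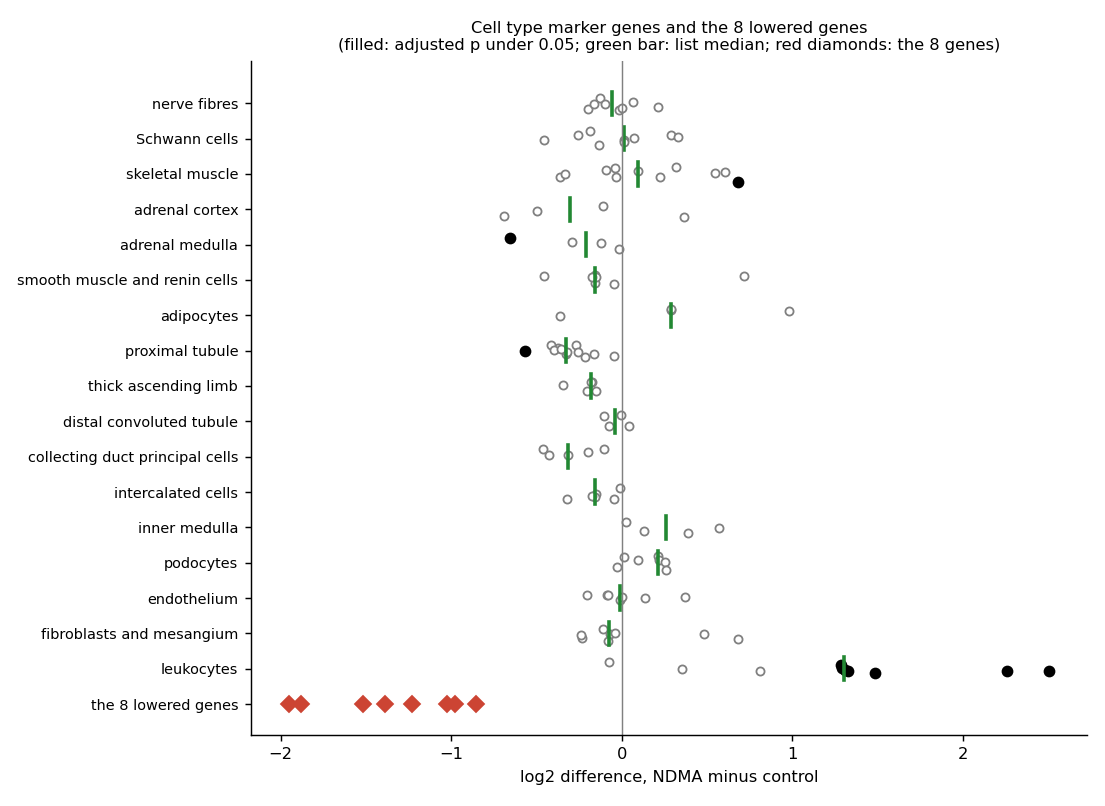
Log2 difference, NDMA minus control (x axis), of marker genes of 17 cell types or tissues (rows), filled where adjusted p was under 0.05, with the list median (green bar) and the 8 lowered genes in the bottom row (red diamonds). The medians of the marker lists run from -0.32 for the proximal tubule to 1.30 for leukocytes. The diamonds, from -1.95 to -0.85, lie far left because they were chosen for their large falls.

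The genes nearest to each of the 8 in profile were found by root mean square distance over the 6 arrays, each profile taken less its own mean, among 12161 named genes, with the other members of the 8 left out. The measure is a description, since the difference between groups dominates it. Casq1 had the closest neighbour, Ltc4s, at 0.06, followed by Ptprn at 0.16. Galnt16 lay nearest to Amdhd2 (0.09) and Cldn22 (0.10), Cacna1h to Or9k2b (0.13) and Fam163a (0.15), and Lamc3 to Mbl1 (0.16) and Mt3 (0.27). Crb1 lay nearest to Ltc4s (0.21) and Mgll (0.22), and Cnnm1 to Igfbp3 (0.26) and Gnat2 (0.28). Outside the 8, Nefm and Gabbr2 had no neighbour closer than Fat3 at 0.41 and Ppara at 0.47, and for both the second was Or8b54b, at 0.43 and 0.53. Or8b54b and Or9k2b were dim, with log2 signals no higher than -6.04 and -5.73 in NDMA rats. Among the 8, the distance was 0.38 between Gabbr2 and Nefm, 0.39 between Nefm and Crb1, 0.20 between Crb1 and Galnt16 and 0.19 between Casq1 and Galnt16.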

How the data were processed

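The authors read Cy3 spot intensities of 6 arrays with Agilent's Feature Extraction software, version 10.7.1.1 per the file headers and 10.7 per the submitters' processing notes. Processed intensity, as deposited, is background-subtracted and detrended on its own array, and the deposited median and background intensity are pixel values. The authors' value table is a linear ratio that matched processed intensity over the 75th percentile of the array within 0.00139 on the log2 scale for values above 0.2, so it is not centred on genes; its medians were 0.110 to 0.115.

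Here log2 processed intensity was reduced by that percentile over 61657 non-control probes. Spots flagged as outliers were left out. Probes well above background on all 3 arrays of a group were kept (43118), and a feature was read by its brightest probe. Names came from RefSeq (GRCr8) by accession for 27460 probes. The array annotation names rn4, so no coordinates of probes or gene bodies are given, and promoter coordinates are those of the GRCr8 table. NDMA was tested against control by limma 3.58.1 (R 4.3.3), two-sided, with Benjamini-Hochberg adjustment over 31915 features and a threshold of 0.05. An exact test of 3 against 3 cannot go below p = 0.1. The fit was tested on simulated data. The number of arrays limits the precision.

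The 8 genes and all lists were chosen with earlier results of these data known. Named genes were the 8, fixed close relatives, up to 4 called genes of each related list or otherwise the 2 with the smallest p, the genes next in rank and the 2 nearest profiles. Marker genes named were called ones, the ones not detected, or Ddc, chosen after their values were seen. Some genes that the rule names are not reported here. Alternatives covered background, scaling, filter, outlier spots, probe choice, variance model, slide, replicate block, the authors' table and each animal left out.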

Additional observations from a re-analysis of the deposited data

How the results depend on the processing

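Over the 8 genes and 19 alternatives, 148 of 152 differences stayed within the SD between replicates of the reported value. The exceptions were Lamc3, Crb1 and Galnt16 with normexp, at -0.91, -0.80 and -0.59, and Lamc3 at -0.86 as the mean over its probes. Changes of filter, outlier spots, variance model or replicate block left each difference unchanged. The slide block repeats the values of slide 1 alone. The count of 148 thus overstates how stable the differences were. The median of the 8 genes was -0.90 with normexp, and from -1.39 to -1.16 without 1 animal. Of the 8 genes, 1 was called without a filter on dim probes (Crb1), 0 with the slide as a fixed block and 0 on slide 1 alone. Without 1 animal the count ran from 1 to 5. All features called numbered 957, and 371 of 45877 without the filter, 67 with the slide as a block and 0 on slide 1 alone (3501 at an unadjusted p under 0.05 in limma). Without 1 animal they ran from 364 to 749. Related genes called numbered 1 (Vim), 2 with a trended and robust variance (St6galnac3 and Vim), and 0 without the filter, with the slide block and on slide 1 alone, where 16, 8 and 10 had an unadjusted p under 0.05. Without 1 animal they ran from 0 to 3, the 3 being Prph, St6galnac3 and Vim without NDMA rat 1. Replicate numbers did not pair animals (deviations from the group means correlated at 0.04, -0.05 and 0.03 for numbers 1 to 3). With the replicate block 351 features, 2 of the 8 genes (Gabbr2 and Cacna1h) and 0 related genes were called (0.0439% of features lower), the related genes with 20 at an unadjusted p under 0.05. A fit with the slide as a random block (correlation -0.04) stayed close to the fit that chose the genes. It called 8 of the 8, and 0.608% of all features as lower. The cause of these changes in calls was not tested. Dim probes, such as those of Galnt16 and the second probe of Cnnm1, limit what the arrays can show.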
